A study of Mus musculus and Bos taurus with 26 samples.

Results

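Mouse embryos that had been cultured with DMSO were set against mouse embryos that had been injected with water, both collected at the late 2-cell stage, 36 h after fertilization. Both are control groups of a study of the histone deacetylases HDAC1 and HDAC2 at zygotic genome activation. They make up 4 of the 22 mouse libraries and 4 of all 26 libraries of the series, with 2 libraries in each group. The DMSO embryos were kept in KSOM, a simple culture medium for mouse embryos, with dimethyl sulfoxide, the solvent used to deliver drugs. They are the vehicle control of embryos given 50 nM FK228, an inhibitor of class I histone deacetylases, and their labels name no injection. The H2O embryos received water as zygotes, and their labels name no DMSO. Injection and solvent therefore differ together between the groups. The Hdac2 WT and Hdac1 WT groups, embryos of the same age injected as zygotes with the unmutated Hdac2 or Hdac1 mRNA, were used as further points of comparison. Strain, sex, embryos per library and DMSO concentration were not stated in the labels. Nor do the labels say that the 2 libraries of a group came from separate cultures, so a p-value weighs the difference only against the spread among libraries, and that spread may be technical.

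In the mouse the late 2-cell stage is the time of the main wave of embryonic transcription. Transcripts stored in the egg are degraded while the embryo switches on its own genes, first a burst of genes typical of the 2-cell stage and then genes for ribosomes, RNA processing and metabolism. A control group in such an experiment sets the level against which a treatment is read.

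Gene levels were the FPKM values that the authors deposited, that is, a fragment number divided by transcript length and by the library's mapped fragments. A gene was tested where at least 2 of the 4 DMSO and H2O libraries reached 1 FPKM, which kept 12234 of 27988 genes. Differences are given as log2 fold changes of log2(FPKM + 1), DMSO minus H2O, with the standard error (SE). That scale understates the change of genes with low values. A gene was called changed at an adjusted p under 0.05 in limma. FPKM values carry no record of sequencing depth, so no counting error can be given.

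The calls followed base composition, and coding sequences of 4 called genes are printed here as an illustration. These 4 were picked by transcript GC, so the contrast among them was fixed by the choice. Among the 15 largest called differences in each direction whose call held in 13 or more of 15 alternative settings, these are the 2 higher genes with the most and the 2 lower genes with the least G and C in their transcripts. Each run is the first 150 coding bases from GENCODE M21, 5′ to 3′ on the coding strand, with G and C in capitals. Epop, which encodes a protein that binds Polycomb repressive complex and elongin, lies on the minus strand at chr11:97629132-97629281 (GRCm38). The Iroquois homeobox gene Irx5 lies on the plus strand at chr8:92358184-92358333. Tfpi, which encodes the tissue factor pathway inhibitor of blood clotting, lies on the minus strand at chr2:84453957-84458131, where the run spans 2 exons. Tiparp, which encodes a mono-ADP-ribosyltransferase, lies on the plus strand at chr3:65531265-65531414.
Epop: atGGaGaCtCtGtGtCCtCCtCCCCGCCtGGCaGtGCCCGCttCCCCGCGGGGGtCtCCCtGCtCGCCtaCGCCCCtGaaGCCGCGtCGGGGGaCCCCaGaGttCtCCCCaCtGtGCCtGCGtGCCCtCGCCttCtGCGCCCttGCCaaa
Irx5: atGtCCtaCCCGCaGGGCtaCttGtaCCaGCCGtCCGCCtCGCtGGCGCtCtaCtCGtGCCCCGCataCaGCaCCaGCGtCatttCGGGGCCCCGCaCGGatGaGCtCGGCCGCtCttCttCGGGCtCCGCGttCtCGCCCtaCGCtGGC
Tfpi: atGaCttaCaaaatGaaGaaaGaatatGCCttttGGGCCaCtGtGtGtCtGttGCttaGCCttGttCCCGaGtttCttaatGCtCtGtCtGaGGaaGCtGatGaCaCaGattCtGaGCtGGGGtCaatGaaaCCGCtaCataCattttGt
Tiparp: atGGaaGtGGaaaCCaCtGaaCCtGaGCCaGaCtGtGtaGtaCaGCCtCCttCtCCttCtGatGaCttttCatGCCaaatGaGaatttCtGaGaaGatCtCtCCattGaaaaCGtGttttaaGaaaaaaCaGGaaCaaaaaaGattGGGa
G and C made up 70.0% of the Epop run and 67.3% of the Irx5 run, both higher in DMSO embryos. They made up 42.7% of the Tfpi run and 40.0% of the Tiparp run, both lower in DMSO embryos. Over the whole coding sequence the shares were 71.7%, 65.6%, 43.5% and 40.6% for Epop, Irx5, Tfpi and Tiparp.

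Before any function is compared, the libraries divided in a way that the labels do not explain. Of 8 genes that were listed at 0 in both libraries of 2 to 9 groups and reached at least 1 FPKM in every other mouse library, 7 had one and the same pattern. Gm7551, Gm21293, Gm20765, Gm13697, Gm13694, Gm21304 and Gm37110 were listed at 0 in all 8 libraries of the DMSO, FK228, Hdac2 WT and Hdac2 MU groups, and lay between 4.25 and 509 FPKM in the 14 other mouse libraries. Gm37110, for example, was listed at 0 in both DMSO libraries, against 107 and 182 FPKM in the H2O libraries. Gm13694 was listed at 0 in both DMSO libraries, against 128 and 107 FPKM in the H2O libraries. Gm21293, Gm20765 and Gm21304 lie close together on chromosome 10, and Gm13697 and Gm13694 on chromosome 2. These are predicted genes, in part with near-identical copies, so the authors' counting could split their reads. No label or header names a batch. DMSO and H2O libraries fell on different sides of this division, so its part in any difference between them cannot be told apart from solvent and injection. Hdac2 WT libraries fell on the DMSO side, and Hdac1 WT libraries on the H2O side.

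Between 11988 and 12105 genes reached 1 FPKM in the DMSO libraries and between 11352 and 11941 in the H2O libraries. The 10 most abundant genes took 7.1% and 7.4% of the summed FPKM in the DMSO libraries, against 11.2% and 8.0% in the H2O libraries. The 2-cell burst genes, which mark the stage, were at 1 FPKM or more in both groups for 45 of 49 genes. The genes that the study manipulated did not pass the test. Hdac1 had 90.6 and 92.1 FPKM in DMSO embryos, against 92.2 and 89.3 FPKM in H2O embryos (log2 fold change 0.01 ± 0.18 SE, adjusted p = 0.978). Hdac2 had 20.9 and 21.2 FPKM in DMSO embryos, against 26.4 and 19.2 FPKM in H2O embryos (−0.09 ± 0.14 SE, adjusted p = 0.707). The demethylase gene Kdm5b had 105 and 138 FPKM in DMSO embryos, against 143 and 124 FPKM in H2O embryos (−0.14 ± 0.25 SE, adjusted p = 0.745). The ranges of the groups overlapped for all 3 genes. Their signs changed with the setting: Hdac1 was at −0.17 under median-ratio scaling, −0.19 under quantile normalization and −0.18 after a correction for transcript GC, Hdac2 at 0.13 without H2O replicate 1 and Kdm5b at 0.05 without DMSO replicate 1.

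The DMSO and H2O libraries lay further apart than replicates but far closer than control and HDAC-impaired embryos. The distance between libraries was measured as the median absolute difference of log2(FPKM + 1) over the tested genes. It was 0.369 to 0.412 between DMSO and H2O libraries, against 0.182 between the DMSO replicates and 0.296 between the H2O replicates. The mean distance between the groups was 1.64 times the mean within them. This ratio was 1.32 without either DMSO replicate, 2.04 without H2O replicate 1 and 2.26 without H2O replicate 2. Leaving out a library also removes the replicate pair of its group. The divisor is then the other group's pair alone, 0.296 for H2O or 0.182 for DMSO. For scale, FK228 libraries were 0.832 to 0.856 from DMSO libraries, and Hdac1 MU libraries, from embryos injected with a mutant Hdac1 mRNA, were 0.724 to 0.811 from Hdac1 WT libraries.

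Among the 4 control groups, the DMSO libraries were nearest to Hdac2 WT libraries and farthest from Hdac1 WT libraries. DMSO libraries were 0.269 to 0.370 from Hdac2 WT libraries, which had been injected, and 0.460 to 0.481 from Hdac1 WT libraries, which had been injected too. H2O libraries were closer to Hdac1 WT libraries (Hdac1 WT and H2O, 0.293 to 0.371) than to Hdac2 WT libraries (Hdac2 WT and H2O, 0.367 to 0.410). Hdac2 WT and Hdac1 WT libraries, both from mRNA-injected embryos, were 0.367 to 0.425 apart, a range that overlaps that between DMSO and H2O.

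**Figure D1:**
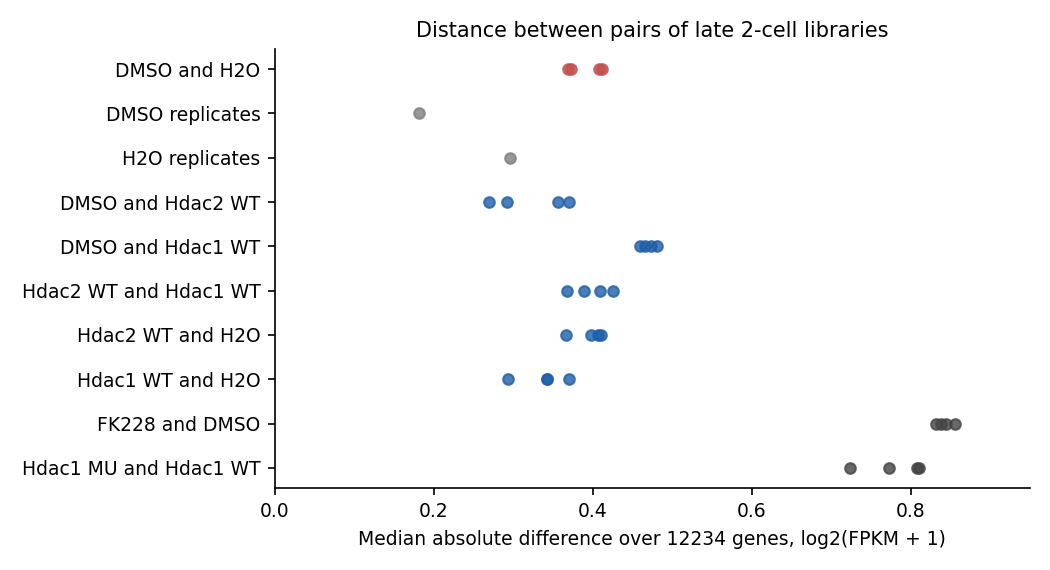
Distance between pairs of late 2-cell libraries, as the median absolute difference of log2(FPKM + 1) over the tested genes; each point is a pair of libraries. The 4 DMSO and H2O pairs lie at 0.369 to 0.412, above both pairs of replicates, in the same range as the Hdac2 WT and Hdac1 WT pairs, and far below the FK228 and Hdac1 MU pairs.

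Most called genes were higher in DMSO embryos. Of 12234 genes, 1548 (12.7%) were higher and 344 (2.81%) were lower in DMSO than in H2O embryos, 15.5% in all, and 81.8% of the calls were higher. At least a 2-fold difference was reached by 714 of the higher and 98 of the lower calls. The median log2 fold change was 0.96 over the higher calls and −0.75 over the lower calls. Over all genes tested it was 0.158. Scaling moved that median to 0.003 (median-ratio scaling) or −0.012 (quantile normalization). It also moved the balance of calls, to 887 higher and 642 lower (58.0% higher) under median-ratio scaling and to 685 higher and 452 lower (60.2% higher) under quantile normalization. A single library mattered for the counts, over all genes as in the lists below. There were 698 higher and 108 lower genes without DMSO replicate 1, 603 and 111 without DMSO replicate 2, and 763 and 171 without H2O replicate 1. A fit of the 4 libraries alone, with 2 residual degrees of freedom, called 532 higher and 60 lower.

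The called genes differed in the base composition of their transcripts. The median transcript of a gene higher in DMSO embryos was 55.4% G and C, that of a gene lower in DMSO embryos 43.2%, and that of all genes tested 49.8%. When the 12058 tested genes with an annotated transcript were divided into 10 classes of near-equal size by GC share, the median log2 fold change climbed at every step. It was −0.18 in the class with the least GC (31.0% to 41.5%) and 0.65 in the class with the most (58.0% to 76.3%). In the lowest class 1.33% of genes were higher and 9.04% lower in DMSO embryos. In the highest class 37.6% were higher and 0.166% lower. Across these genes, which share the same libraries and are not independent, the fold change correlated with GC at r = 0.424, with log2 transcript length at r = −0.032, and, over 8836 genes, with the number of CpG dinucleotides in the 250 bases before the RefSeq start at r = 0.023. The median number of such CpGs was 17 for the genes higher in DMSO, 17 for those lower and 16 for all tested.

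The same gradient stood between 2 groups that share no library with DMSO or H2O. The median log2 difference of Hdac2 WT minus Hdac1 WT, both mRNA-injected, was −0.22 in the lowest and 0.62 in the highest GC class (r = 0.43 with GC). The genes higher in DMSO than in H2O embryos had a median of 0.69 in that comparison, and 94.2% of them lay above 0. For the genes lower in DMSO embryos the median was −0.36, with 18.9% above 0. For all tested genes it was 0.17, with 64.2% above 0. Across the 12234 genes the 2 differences correlated at r = 0.561. Hdac2 WT and Hdac1 WT lie on opposite sides of the library division, and its part in this gradient was not tested. Late minus early 2-cell Hdac1 WT, 2 groups on the same side, also rose with GC, though not at every step. Its medians were −0.015 and −0.136 in the 2 lowest GC classes and 0.521 and 0.505 in the 2 highest. The part of stage was not tested either.

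**Figure D2:**
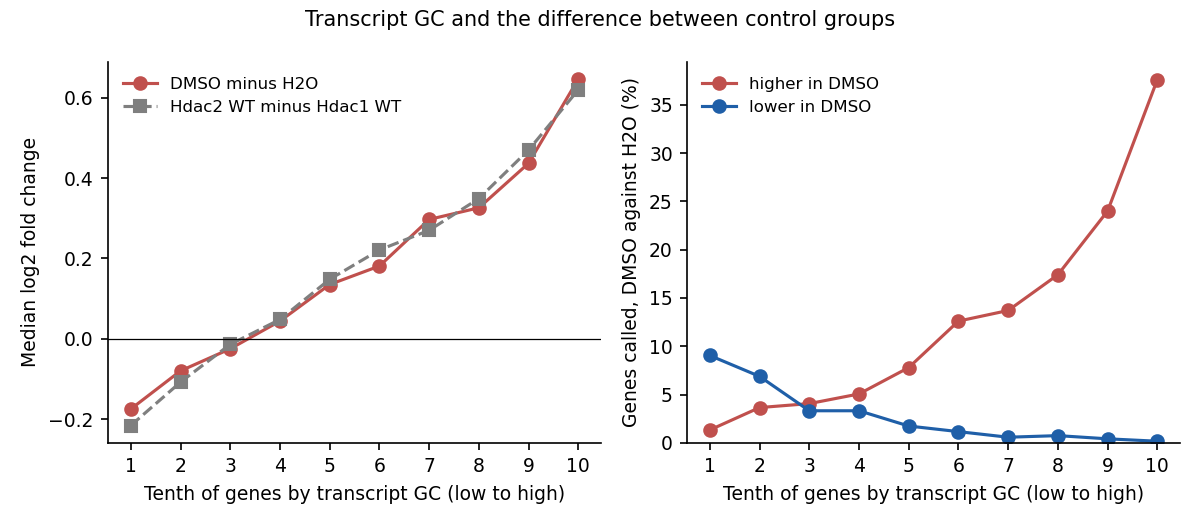
Genes were divided into 10 classes by the GC share of their longest transcript, from low to high. Left, the median log2 fold change of DMSO minus H2O and of Hdac2 WT minus Hdac1 WT per class; both climb, with DMSO minus H2O at −0.18 in the first and 0.65 in the last class. Right, the percent of genes called higher or lower in DMSO embryos per class, with 37.6% higher in the class with the most GC.

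A correction for GC, in which each library's deviations from the gene means were smoothed on transcript GC and the trend removed, was added after these values were seen. It left 452 higher and 269 lower genes (62.7% higher). Of the calls as deposited, 448 higher and 179 lower ones remained. The background as deposited is 12.7% higher and 2.81% lower. The background for list counts after the correction is 452 higher and 269 lower of 12058 genes.

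The 15 largest increases in DMSO embryos, clone and predicted genes left out, were in genes at 0 to 5.05 FPKM in the H2O libraries. Dio3, the deiodinase that inactivates thyroid hormone (chr12:110279068-110281097, GRCm38), had 45.0 and 49.3 FPKM in DMSO embryos, against 3.19 and 2.81 FPKM in H2O embryos (log2 fold change 3.59 ± 0.24 SE, adjusted p = 1.10e-07). The groups lay far apart, and Hdac2 WT embryos, at 14.4 and 19.7 FPKM, were between DMSO and Hdac1 WT embryos, at 4.84 and 4.02 FPKM. The T-box factor gene Tbx1 had 12.7 and 14.0 FPKM in DMSO embryos, against 0.561 and 1.09 FPKM in H2O embryos (2.99 ± 0.28 SE, adjusted p = 6.93e-06). Fam20c, which encodes a kinase of secreted proteins, had 10.3 and 6.99 FPKM in DMSO embryos, against 0.298 and 0.0630 FPKM in H2O embryos (3.02 ± 0.36 SE). The sphingosine kinase gene Sphk1 had 33.9 and 30.9 FPKM in DMSO embryos, against 1.98 and 4.96 FPKM in H2O embryos (2.98 ± 0.35 SE). Hdac2 WT embryos held intermediate levels of both Tbx1 (4.62 and 7.37 FPKM) and Sphk1 (11.5 and 16.6 FPKM).

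The rest of these 15 increases were of mixed function. Mmp15, a membrane-bound matrix metalloproteinase, had 19.4 and 19.4 FPKM in DMSO embryos, against 1.38 and 1.94 FPKM in H2O embryos (2.95 ± 0.21 SE, adjusted p = 3.19e-07). Irx5 had 25.6 and 12.8 FPKM in DMSO embryos, against 1.32 and 2.70 FPKM in H2O embryos (2.71 ± 0.28 SE). Epop had 17.9 and 25.2 FPKM in DMSO embryos, against 1.96 and 3.96 FPKM in H2O embryos (2.54 ± 0.32 SE). The DMSO libraries were the highest of all 4 control groups for Irx5 and Epop. Hsf4, a heat shock factor, Schip1, the adhesion gene Mdga1, the zinc finger gene Zbtb42, the phosphatase subunit gene Ppp2r2c and Fam181b rose by 2.54 to 2.91 on the log2 scale. One H2O library was listed at 0 for Hsf4. The calls of 13 of the 15 genes held under all 15 alternative settings.

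The other members of these 15 are small RNAs that lack a poly(A) tail, which the oligo(dT) selection should not take up. The spliceosomal U2 RNA gene Rnu2-10 had 12.4 and 9.23 FPKM in DMSO embryos and was listed at 0 in both H2O libraries, as in the Hdac2 WT and Hdac1 WT libraries. The 7SK RNA gene Rn7sk had 16.2 and 44.9 FPKM in DMSO embryos and was listed at 0 in H2O replicate 1 and at 5.05 FPKM in H2O replicate 2. Its call was lost without DMSO replicate 2, without H2O replicate 1 and in the fit of 4 libraries, and that of Rnu2-10 without any one of the 4 libraries.

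**Figure D3:**
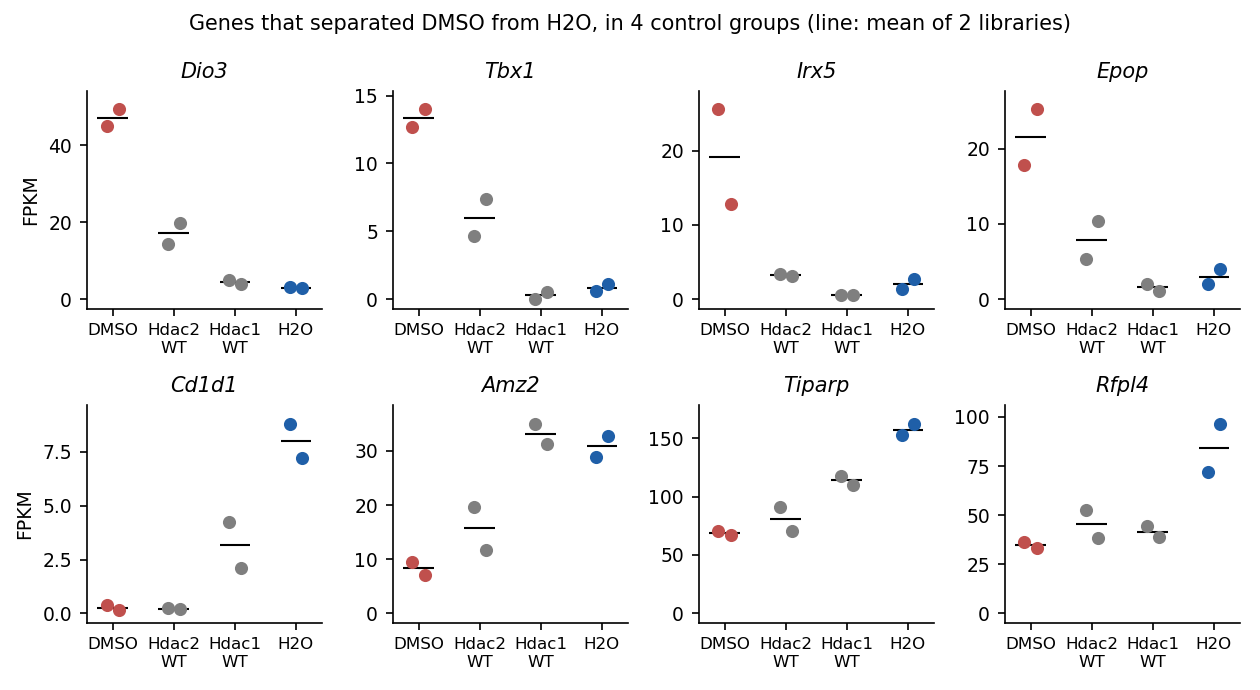
FPKM of 8 genes in the 2 libraries each of the DMSO, Hdac2 WT, Hdac1 WT and H2O groups; points are libraries and lines are means. Dio3, Tbx1, Irx5 and Epop are highest in DMSO libraries, Cd1d1, Amz2 and Tiparp are lower in DMSO and Hdac2 WT than in Hdac1 WT and H2O libraries, and Rfpl4 is highest in H2O libraries.

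With clone and predicted genes left out, the 15 largest decreases in DMSO embryos lay between −1.06 and −2.84 on the log2 scale. Cd1d1, which presents lipid antigens to T cells (chr3:86995834-86999441), had 0.389 and 0.133 FPKM in DMSO embryos, against 8.81 and 7.21 FPKM in H2O embryos (−2.84 ± 0.40 SE, adjusted p = 0.000339). Hdac2 WT embryos were as low as DMSO embryos, at 0.243 and 0.196 FPKM, and Hdac1 WT embryos had 4.26 and 2.13 FPKM. The metallopeptidase gene Amz2 had 9.54 and 7.03 FPKM in DMSO embryos, against 28.9 and 32.8 FPKM in H2O embryos (−1.79 ± 0.24 SE, adjusted p = 0.000250). Tiparp had 70.5 and 67.1 FPKM in DMSO embryos, against 153 and 163 FPKM in H2O embryos (−1.18 ± 0.12 SE, adjusted p = 1.87e-05). Tiparp is a known target of the aryl hydrocarbon receptor. These 3 were the genes among the 15 whose calls held under every setting.

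Tfpi had 1.90 and 1.78 FPKM in DMSO embryos, against 5.99 and 5.75 FPKM in H2O embryos (−1.28 ± 0.29 SE, adjusted p = 0.00872). Its level in Hdac1 WT embryos, 1.57 and 1.70 FPKM, was close to that in DMSO embryos, so here the H2O libraries stood apart. The oocyte RING finger gene Rfpl4 had 36.3 and 33.2 FPKM in DMSO embryos, against 71.9 and 96.5 FPKM in H2O embryos (−1.24 ± 0.27 SE). Hexdc, a hexosaminidase gene, the ATP-gated channel gene P2rx4, Rfxap, the golgin gene Gcc2, the vesicle trafficking gene Trappc2, Dbndd2 and the zinc finger gene Zfp935 fell by 1.11 to 1.59 on the log2 scale. Nrd1, the nardilysin gene, had 6.88 and 6.05 FPKM in DMSO embryos, against 26.7 and 7.77 FPKM in H2O embryos (−1.06 ± 0.34 SE). Its difference rested largely on H2O replicate 1, and the call was lost without that library. The histone H2A genes Hist1h2ap and H2ac12 were also among the 15, but their H2O values were far apart: Hist1h2ap had 3.79 and 5.56 FPKM in DMSO embryos, against 13.8 and 82.3 FPKM in H2O embryos. Histone gene copies are nearly identical and their messages mostly lack a poly(A) tail, so these values are uncertain.

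Of the lists used, developmental regulators gave the most higher calls. This list was put together from gene names after values had been seen, and it is a description. Of 220 homeobox, T-box, Sox, Pax, Fox and similar genes in the table, 82 passed the filter. Of these, 48 were higher (58.5%, against 12.7% of all genes) and 1 was lower in DMSO embryos. In 23 of the 82 both H2O libraries were under 1 FPKM, so those genes passed the filter only through the DMSO libraries. The median log2 fold change was 0.83, against 0.158 over all genes. Among the 59 members that reached 1 FPKM in an H2O library, 30 were higher and 1 was lower, with a median of 0.68. Over the 11807 tested genes of that kind 1315 were higher, with a median of 0.139. Runx3 had 6.47 and 5.64 FPKM in DMSO embryos, against 0.0583 and 0.453 FPKM in H2O embryos (2.51 ± 0.43 SE). Sox1, a neural marker, had 4.72 and 5.43 FPKM in DMSO embryos, against 0.308 and 0.541 FPKM in H2O embryos (2.10 ± 0.22 SE). Nkx2-5, a heart factor, had 4.70 and 4.15 FPKM in DMSO embryos, against 0.112 and 0.726 FPKM in H2O embryos (1.97 ± 0.22 SE). All 3 were under 1 FPKM in both H2O libraries. Hdac2 WT embryos were at 0.2997 and 0.444 FPKM for Nkx2-5, as low as H2O embryos.

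The count of higher developmental genes was smaller after the GC correction, as was the count over all genes, at 452 of 12058 against 1548 of 12234. The list's median transcript was 56.1% G and C. After the GC correction 20 genes were higher and 2 lower, with a median of 0.41, against −0.011 over all genes. Without DMSO replicate 2 the list held 30 higher genes. In the other pair of control groups the list was 0.73 higher on median in Hdac2 WT than in Hdac1 WT embryos. In 34 of the 82 genes both DMSO libraries lay above all 6 other control libraries, against 17.8% of all tested genes and 55.7% of all higher calls. None of these list values leaves out the 23 genes under 1 FPKM in both H2O libraries.

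Wnt, Fgf and Bmp ligands and Frizzled receptors, likewise listed after values had been seen, moved in the same direction. Of 20 that passed the filter, of 62 in the table, 12 were higher (60.0%) and none was lower in DMSO embryos, with a median of 0.89. The ligand gene Wnt7b had 5.51 and 5.42 FPKM in DMSO embryos, against 0.385 and 0.306 FPKM in H2O embryos (2.26 ± 0.22 SE). The receptor genes Fzd5 and Fzd7, which are expressed in these embryos at higher levels, had 42.5 and 45.2 FPKM (Fzd5) and 63.7 and 63.5 FPKM (Fzd7) in DMSO embryos, against 11.8 and 10.4 FPKM and 21.9 and 25.9 FPKM in H2O embryos. Both H2O libraries were under 1 FPKM for 5 of the 20, Wnt7b among them. Of the other 15, 7 were higher, with a median of 0.22. Over the 11807 tested genes that reached 1 FPKM in an H2O library the median was 0.139. Without DMSO replicate 2 there were 7 higher genes, and 6 after the GC correction, counts that do not leave out those 5.

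Pluripotency and lineage factors overlap the developmental list in part. Of 25 tested, 9 were higher (36.0%, against 12.7% of all genes) and none lower in DMSO embryos, with a median of 0.46. Utf1, a chromatin factor of pluripotent cells, had 18.7 and 13.7 FPKM in DMSO embryos, against 2.74 and 1.46 FPKM in H2O embryos (2.49 ± 0.28 SE, adjusted p = 4.59e-05). Sox2 had 15.1 and 13.2 FPKM in DMSO embryos, against 2.99 and 6.78 FPKM in H2O embryos (1.44 ± 0.32 SE). Hdac2 WT embryos, at 7.87 and 6.94 FPKM, were closer to H2O embryos for Sox2 and, at 9.57 and 15.6 FPKM, closer to DMSO embryos for Utf1. There were 5 higher genes without H2O replicate 1 and 5 after the GC correction. In 3 of the 25 both H2O libraries were under 1 FPKM, and of the other 22, 7 were higher, with a median of 0.43.

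Immediate-early genes, which cells switch on within minutes of a stimulus, were called higher in 56.5% of those tested. Of 23 tested, 13 were higher and none lower in DMSO embryos, with a median of 0.87. The zinc finger factor gene Klf4 had 118 and 146 FPKM in DMSO embryos, against 60.5 and 53.5 FPKM in H2O embryos (1.19 ± 0.15 SE, adjusted p = 9.25e-05). Its relative Klf2 had 38.3 and 39.7 FPKM in DMSO embryos, against 13.5 and 10.3 FPKM in H2O embryos (1.64 ± 0.19 SE). The AP-1 subunit gene Fosl2 had 5.04 and 4.02 FPKM in DMSO embryos, against 0.389 and 0.960 FPKM in H2O embryos (1.74 ± 0.25 SE). Maff, Dusp6, Ier2, Jund, Ier5, Zfp36, Fosb, Mycn, Jun and Dusp4 were higher by 0.86 to 1.47. In 3 of the 23, Fosl2 among them, both H2O libraries were under 1 FPKM, so those genes passed the filter only through the DMSO libraries. Of the other 20, 11 were higher, with a median of 0.89. The list's transcripts had a median of 55.5% G and C, and 5 members were higher after the GC correction (median 0.45). It held 8, 7 and 7 higher genes without DMSO replicate 1, DMSO replicate 2 and H2O replicate 1. Its summed level was 508 and 528 FPKM in DMSO libraries, 393 and 460 FPKM in Hdac2 WT libraries, 259 and 197 FPKM in Hdac1 WT libraries and 270 and 261 FPKM in H2O libraries.

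Other stress responses gave smaller counts. Genes of the unfolded protein response of the endoplasmic reticulum and of the integrated stress response numbered 10 higher and none lower of 37. That is 27.0% higher, against 12.7% of all genes, with a median of 0.24. In 3 of the 37 both H2O libraries were under 1 FPKM, so those genes passed the filter only through the DMSO libraries. Of the other 34, 7 were higher. Their median was 0.15, against 0.139 over the 11807 tested genes that reached 1 FPKM in an H2O library. Trib3, a target of the factor ATF4, had 58.8 and 58.4 FPKM in DMSO embryos, against 34.7 and 33.1 FPKM in H2O embryos (0.77 ± 0.24 SE, adjusted p = 0.0413). The secreted ER stress protein gene Manf had 159 and 195 FPKM in DMSO embryos, against 115 and 96.2 FPKM in H2O embryos (0.74 ± 0.16 SE). The list held 2 higher genes without DMSO replicate 1, 1 without DMSO replicate 2, and 4 without either H2O replicate. After the GC correction 1 was higher and 1 lower. Chaperonin and heat shock genes were mixed, with 6 higher and 2 lower of 30, with 2 higher and 2 lower after the GC correction, and 2, 2, 4 and 3 higher without DMSO replicate 1, DMSO replicate 2, H2O replicate 1 and H2O replicate 2. The inducible Hspa1a had 33.7 and 33.3 FPKM in DMSO embryos, against 18.2 and 15.9 FPKM in H2O embryos (0.94 ± 0.20 SE). The mitochondrial chaperonin gene Hspd1 had 32.2 and 34.6 FPKM in DMSO embryos, against 48.9 and 41.1 FPKM in H2O embryos (−0.42 ± 0.12 SE).

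Lists chosen with solvent and injection in mind gave few calls. Of 18 tested genes of xenobiotic and solvent metabolism, 5 were higher and none lower (median 0.49), and none was called after the GC correction. Msrb1, a methionine sulfoxide reductase gene, had 165 and 154 FPKM in DMSO embryos, against 77.7 and 93.7 FPKM in H2O embryos (0.89 ± 0.17 SE). Of 19 osmotic response genes 3 were higher, among them the sodium pump subunit gene Atp1b1. None of 16 annexins and membrane repair genes was called in either direction by limma (median 0.18), with 3 at an unadjusted p under 0.05 and 2 higher without H2O replicate 2. Of 24 innate immune and interferon genes 2 were higher, both NF-κB subunits: Relb had 30.1 and 25.3 FPKM in DMSO embryos, against 14.5 and 17.03 FPKM in H2O embryos (0.78 ± 0.20 SE), and Nfkb2 rose by 0.92. Of 35 p53 targets and apoptosis regulators 5 were higher and 2 lower. In 1 of the 35 both H2O libraries were under 1 FPKM, and 4 of the other 34 were higher. Of 38 DNA repair genes 4 were higher and none lower. Shares of this size, at 8.33% to 15.8% higher, were near the background of 12.7%, except for xenobiotic metabolism at 27.8% and annexins at 0. In 3 of the 18 xenobiotic genes both H2O libraries were under 1 FPKM, and 4 of the other 15 were higher. After the GC correction 1 osmotic response gene, 2 p53 targets and no innate immune or DNA repair gene were higher. With DMSO replicate 1, DMSO replicate 2, H2O replicate 1 and H2O replicate 2 left out in turn, the higher genes numbered 2, 1, 3 and 2 for xenobiotic metabolism, 3, 1, 2 and 3 for the osmotic response, 1, 1, 0 and 3 for innate immunity, 3, 4, 2 and 4 for p53 targets and 3, 1, 1 and 3 for DNA repair.

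Cytosolic ribosomal proteins had 14 higher and none lower of 81 (17.3%, against 12.7% of all genes). Their median was 0.27, against 0.158 over all genes. Rpl13a had 932 and 994 FPKM in DMSO embryos, against 273 and 366 FPKM in H2O embryos (1.60 ± 0.24 SE, adjusted p = 0.000429). Rps19 had 610 and 582 FPKM in DMSO embryos, against 236 and 264 FPKM in H2O embryos (1.25 ± 0.21 SE). Ribosomal protein genes have many processed copies, so their levels are uncertain. There were 4, 4 and 5 higher genes without DMSO replicate 1, DMSO replicate 2 and H2O replicate 2, and 2 after the GC correction. Ribosome biogenesis factors, which are switched on steeply at this stage, had 7 higher and none lower of 93. This share of 7.53% was below the 12.7% of all genes. Their median was 0.15, and −0.03 and −0.04 under median-ratio and quantile scaling. In Hdac1 WT embryos this list was 2.89 higher on the log2 scale at the late than at the early 2-cell stage, on median. Ribosome biogenesis held 2 higher genes after the GC correction and 4, 2, 2 and 2 higher genes without DMSO replicate 1, DMSO replicate 2, H2O replicate 1 and H2O replicate 2.

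Cell cycle genes had 11 higher and none lower of 43 (25.6% higher, against 12.7% of all genes, median 0.35). In 1 of the 43 both H2O libraries were under 1 FPKM. Of the other 42, 10 were higher, with a median of 0.28. The cell cycle inhibitor and imprinted gene Cdkn1c had 77.2 and 58.8 FPKM in DMSO embryos, against 13.7 and 15.3 FPKM in H2O embryos (2.14 ± 0.23 SE, adjusted p = 3.05e-05). The cyclin gene Ccnd1 had 13.5 and 14.4 FPKM in DMSO embryos, against 2.06 and 4.31 FPKM in H2O embryos (1.89 ± 0.37 SE). Hdac2 WT embryos stood at 37.2 and 57.2 FPKM for Cdkn1c, near DMSO embryos, and Hdac1 WT embryos at 14.9 and 11.5 FPKM, near H2O embryos. The list held 4, 5 and 4 higher genes without DMSO replicate 1, DMSO replicate 2 and H2O replicate 1, and 4 after the GC correction.

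Genes of cholesterol and fatty acid synthesis had 9 higher and none lower of 36 (25.0% higher, against 12.7% of all genes, median 0.29). The mevalonate kinase gene Mvk had 39.9 and 39.4 FPKM in DMSO embryos, against 6.22 and 16.0 FPKM in H2O embryos (1.88 ± 0.32 SE). The sterol sensor gene Scap had 51.8 and 54.6 FPKM in DMSO embryos, against 32.2 and 29.8 FPKM in H2O embryos (0.76 ± 0.15 SE). There were 5 higher genes without DMSO replicate 1, without DMSO replicate 2 or without H2O replicate 1, and 3 after the GC correction. Actin cytoskeleton genes had 11 higher (25.0%) and 1 lower of 44. Actb, the cytoplasmic actin gene often used to normalize, had 34.2 and 36.9 FPKM in DMSO embryos, against 10.9 and 17.5 FPKM in H2O embryos (1.30 ± 0.23 SE). The actin list held 3 higher genes after the GC correction and 7, 5 and 5 higher genes without DMSO replicate 1, DMSO replicate 2 and H2O replicate 1.

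Lists of the transcription and processing machinery were called higher in shares on both sides of the background of 12.7%. RNA polymerase subunits and general factors had 9 higher and none lower of 45, with the largest subunit gene Polr2a at 32.1 and 39.8 FPKM in DMSO embryos, against 23.0 and 16.6 FPKM in H2O embryos (0.84 ± 0.22 SE). There were 4 after the GC correction, and 4, 1, 5 and 3 without DMSO replicate 1, DMSO replicate 2, H2O replicate 1 and H2O replicate 2. Pre-mRNA splicing factors had 7 higher and 1 lower of 70, mitochondrial ribosomal proteins 6 and 1 of 72, the nuclear-encoded respiratory chain 7 and 0 of 74, the proteasome 3 and 1 of 43, and translation initiation factors 1 and 3 of 42. These are higher shares of 8.33% for mitochondrial ribosomal proteins, 9.46% for the respiratory chain, 6.98% for the proteasome and 2.38% for initiation factors. After the GC correction the higher genes numbered 1 for splicing, 3 for mitochondrial ribosomal proteins, 2 for the respiratory chain and 1 each for the proteasome and initiation factors. With the libraries left out in turn as above, higher genes numbered 1, 2, 4 and 4 for splicing, 2, 3, 3 and 8 for mitochondrial ribosomal proteins, 2, 3, 3 and 4 for the respiratory chain, and 2, 2, 3 and 4 for the proteasome. The single higher gene among the initiation factors, Eif4ebp1, encodes an inhibitor of cap-dependent translation. It had 42.7 and 49.2 FPKM in DMSO embryos, against 8.59 and 18.0 FPKM in H2O embryos (1.80 ± 0.31 SE).

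Maternal oocyte factors were mostly lower in DMSO embryos where they were called. Of 60 tested, 12 were lower, against 2.81% of all genes, and 1 was higher in DMSO embryos, with a median of −0.47. Btg4, an adaptor that directs maternal RNA decay, had 268 and 257 FPKM in DMSO embryos, against 372 and 450 FPKM in H2O embryos (−0.64 ± 0.14 SE, adjusted p = 0.00718). Oog1 had 110 and 108 FPKM in DMSO embryos, against 167 and 210 FPKM in H2O embryos (−0.78 ± 0.17 SE). Spin1, a chromatin reader stored in eggs, had 176 and 188 FPKM in DMSO embryos, against 266 and 304 FPKM in H2O embryos (−0.65 ± 0.14 SE). Fbxw16, Obox5, Nlrp4f, Oog3, Oog4, Nlrp9c, Nlrp14 and E330034G19Rik were lower by 0.75 to 0.97, and Rfpl4 by 1.24. The higher member was the nucleoplasmin gene Npm3, at 33.6 and 34.2 FPKM in DMSO embryos, against 18.1 and 17.7 FPKM in H2O embryos (0.88 ± 0.27 SE). Oog, Obox and Nlrp genes belong to families of close copies, so single members are uncertain.

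The lower calls of this list were as many after the GC correction. The list's median transcript was 44.8% G and C, and after the GC correction 12 members were lower, with a median of −0.45. The list was lower under median-ratio scaling (20 lower) and quantile normalization (17 lower) as well. It held 6, 4 and 6 lower genes without DMSO replicate 1, DMSO replicate 2 and H2O replicate 2, and 3 in the fit of 4 libraries. In the Hdac2 WT minus Hdac1 WT comparison its median was 0.09. Summed over the list, levels were 5844 and 5392 FPKM in DMSO libraries, 8311 and 5163 FPKM in Hdac2 WT libraries, 4317 and 3999 FPKM in Hdac1 WT libraries and 6879 and 8637 FPKM in H2O libraries. The H2O libraries were above all 6 other control libraries for 9 of the 60 genes, and the DMSO libraries below all 6 others for 10. Over all tested genes these shares were 5.34% and 3.69%. In Hdac1 WT embryos the list was lower at the late than at the early 2-cell stage, with a median log2 difference of −2.65, so the gap between DMSO and H2O was small beside the clearance of these messages.

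**Figure D4:**
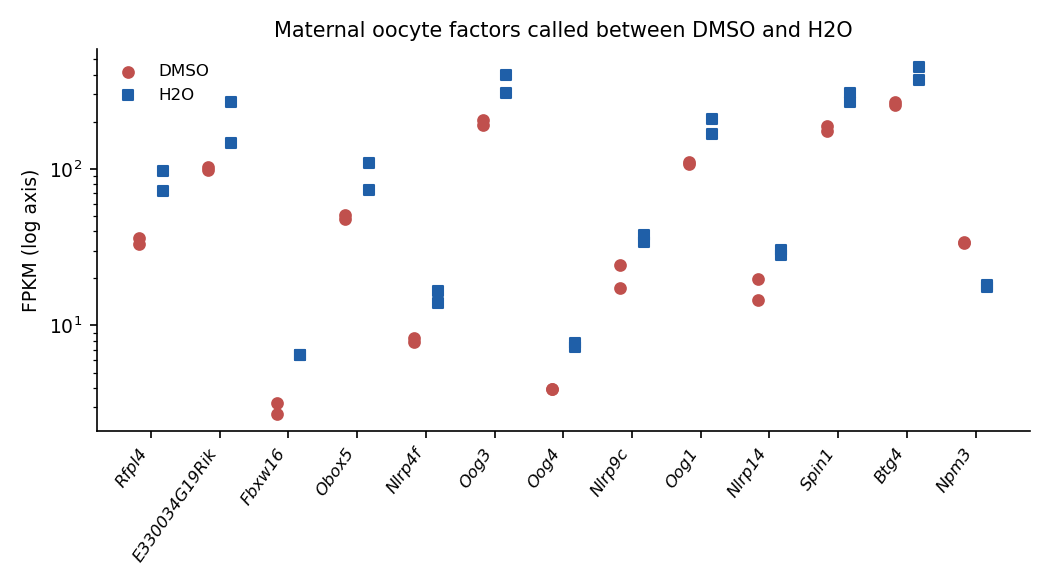
FPKM on a log axis of the 13 maternal oocyte factors called between DMSO and H2O embryos, each with 2 DMSO libraries (circles) and 2 H2O libraries (squares). The 12 lower genes have both DMSO libraries under both H2O libraries, and Npm3 is reversed.

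The 2-cell burst genes, which mark the first embryonic transcription, gave 1 call. Of 45 tested, 1 was lower in DMSO embryos (median −0.06), with 3 lower under median-ratio or quantile scaling. Zscan4c had 10.6 and 12.5 FPKM in DMSO embryos, against 9.49 and 12.7 FPKM in H2O embryos. Zfp352 had 19.9 and 22.3 FPKM in DMSO embryos, against 20.9 and 23.1 FPKM in H2O embryos. Tcstv1 had 22.5 and 28.8 FPKM in DMSO embryos, against 29.2 and 32.8 FPKM in H2O embryos. The lower member was Gm4340, at 4.53 and 3.35 FPKM in DMSO embryos, against 61.0 and 84.8 FPKM in H2O embryos (−3.89 ± 0.21 SE, adjusted p = 7.58e-09). It lies on chromosome 10 beside 3 of the 7 genes listed at 0 on the DMSO side, and it was 6.72 and 5.28 FPKM in Hdac2 WT libraries and 122 and 81.5 FPKM in Hdac1 WT libraries. The activators of the zygotic genome and Obox factors had 3 higher and 2 lower of 28.

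Chromatin genes, the subject of the study, were called higher in shares on both sides of the background of 12.7%, with 4.35% of acetyltransferases and readers and 15.4% of corepressor subunits. Of 14 histone deacetylases and sirtuins, Hdac4 alone was called, a call lost under both scalings, after the GC correction and without DMSO replicate 1, DMSO replicate 2 or H2O replicate 2, at 18.0 and 14.8 FPKM in DMSO embryos, against 11.02 and 3.99 FPKM in H2O embryos (1.16 ± 0.31 SE, adjusted p = 0.0206). The Hdac4 call was also lost in the fit of the 4 libraries alone. Subunits of HDAC1 and HDAC2 corepressor complexes had 6 higher and none lower of 39 (median 0.21, and −0.09 after the GC correction), among them Hmg20b, Mbd2 and Sap30l. No gene of this list was called after the GC correction, where Sap30l had a log2 fold change of −0.19, and 3 were higher without DMSO replicate 1, DMSO replicate 2 or H2O replicate 1. Among 21 enzymes of H3K4 methylation 4 were higher: Kmt2b, Setd1b, Kdm5c and Ash2l. Of 29 Polycomb subunits 3 were higher (10.3%, list median 0.025): Epop, Phf1 and Cbx2. Phf1 (−0.10) and Cbx2 (−0.12) were below 0 after the GC correction. Under median-ratio scaling the Polycomb list had 1 higher and 5 lower, and after the GC correction 1 Polycomb subunit and 1 H3K4 enzyme were higher. Without DMSO replicate 1, DMSO replicate 2, H2O replicate 1 and H2O replicate 2 there were 2, 2, 2 and 5 higher H3K4 enzymes and 1, 1, 2 and 2 higher Polycomb subunits. Histone acetyltransferases and readers had 1 higher of 23, the bromodomain gene Brd3.

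**Figure D5:**
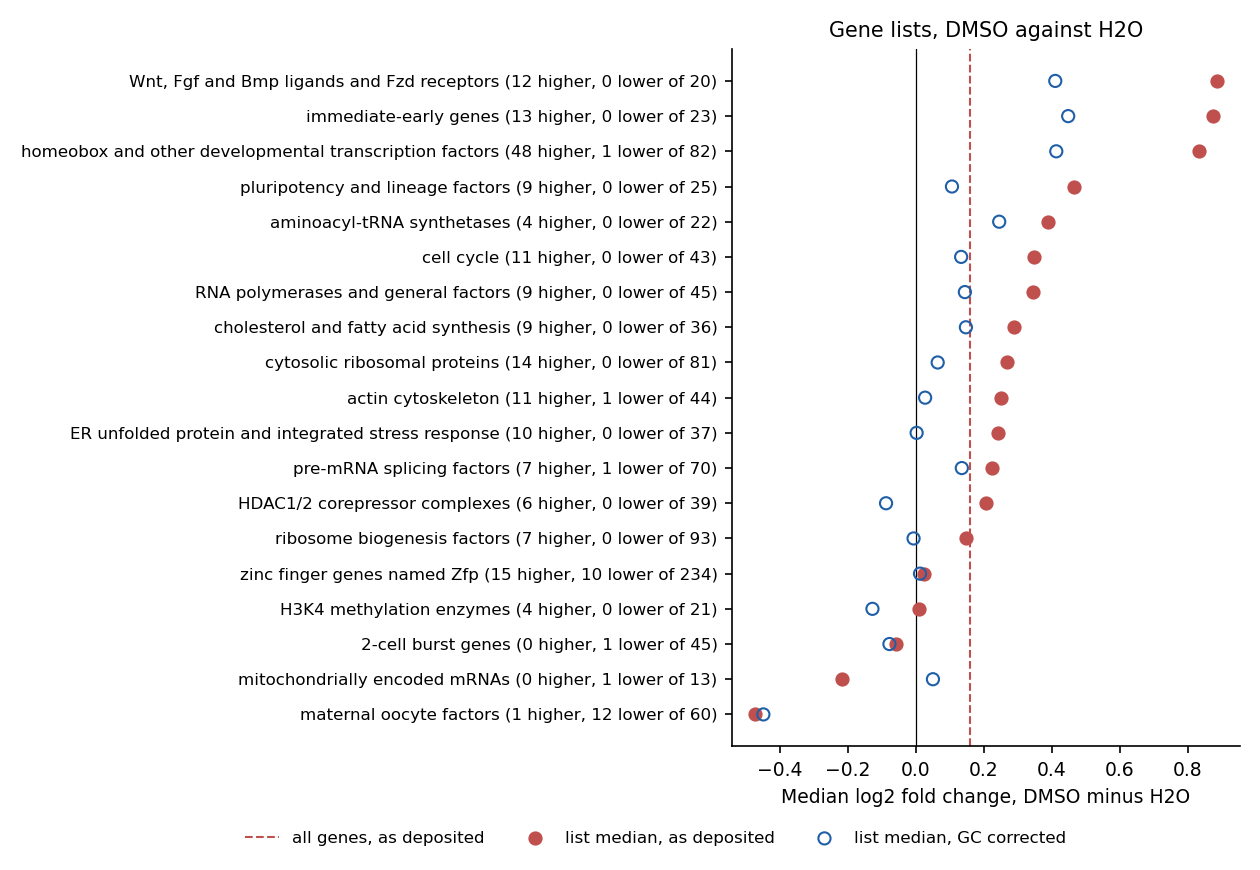
Median log2 fold change, DMSO minus H2O, of 19 gene lists as deposited (filled) and after the GC correction (open); the dashed line is the median of all genes as deposited, 0.158, and counts of called genes stand beside each list. Developmental, signalling and immediate-early genes lie furthest right, at 0.83 to 0.89 as deposited and 0.41 to 0.45 after the correction. Members under 1 FPKM in both H2O libraries are included. Without them the medians as deposited were 0.68 for developmental, 0.22 for signalling and 0.89 for immediate-early genes, against 0.139 over all genes. Maternal oocyte factors lie furthest left, at −0.47 and −0.45.

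RNA of other cell types was looked for with fixed marker lists, all in bulk libraries in which fewer cells of a type and less RNA per cell cannot be told apart. The 28 cumulus and granulosa cell markers summed to 99.6 and 107 FPKM in DMSO libraries, against 61.1 and 75.3 FPKM in H2O libraries. Of the 7 that passed the filter 2 were higher (28.6%, against 12.7% of all genes), Foxl2 and Slc38a3. Foxl2, at 0 and 0.920 FPKM in the H2O libraries, passed the filter only through the DMSO libraries. Of the other 6, 1 was higher. Bmpr1b, at 4.09 and 4.45 FPKM in DMSO libraries against 6.67 and 5.86 FPKM in H2O libraries, and Kitl, at 1.17 and 1.097 FPKM against 2.66 and 1.15 FPKM, did not pass the test, and Fshr, Lhcgr, Ptx3, Ereg and Btc were listed at 0 in all 4 libraries. Amhr2, at 57.7 and 60.5 FPKM in DMSO libraries, against 31.0 and 46.0 FPKM in H2O libraries, made up most of the sum. The 17 blood markers summed to 17.8 and 23.2 FPKM in DMSO libraries, against 10.1 and 11.6 FPKM in H2O libraries. Of 6 tested blood markers Hba-a1 and Coro1a were higher, calls that held in 6 and 3 of 14 settings and in neither scaling nor the GC correction. No blood marker was called without DMSO replicate 2 or without H2O replicate 1. Cd52, at 0.902 and 2.29 FPKM in DMSO libraries against 3.29 and 2.09 FPKM in H2O libraries, did not pass the test, and 6 of the 17, among them Hbb-bs, Hbb-bt, Ptprc, Fcer1g and Cd3e, were at 0 in all 4 libraries. Sperm markers summed to 53.4 and 54.6 FPKM in DMSO libraries, against 45.6 and 40.8 FPKM in H2O libraries, and somatic markers of fibroblasts and epithelia to 83.9 and 83.7 FPKM, against 70.1 and 58.7 FPKM. None of the 4 sperm and 7 somatic markers tested was called by limma, with 1 and 2 of them at an unadjusted p under 0.05. Mitochondrially encoded messages summed to 25565 and 27445 FPKM in DMSO libraries, against 38244 and 26194 FPKM in H2O libraries, where the H2O replicates differed more than the groups. The part of these markers in the differences between the groups was not tested.

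Setting DMSO against an injected control on the same side of the library division gave fewer calls in the values as deposited. Against Hdac2 WT embryos, 429 genes (3.51%) were higher and 153 (1.25%) lower in DMSO embryos, 4.76% in all, with 73.7% of calls higher. The counts share the DMSO libraries with those against H2O, where 12.7% were higher and 2.81% lower. The counts against Hdac2 WT were 45 higher and 5 lower without DMSO replicate 1, 99 and 16 without DMSO replicate 2, and 41 and 5 without Hdac2 WT replicate 1. They were 12 and 1 in a fit of those 4 libraries alone. The balance moved to 52.5% higher under median-ratio scaling, 46.0% under quantile normalization and 44.4% after the GC correction. After that correction 282 genes were higher and 353 lower against Hdac2 WT, beside 452 higher and 269 lower against H2O. Lower calls were then more numerous against Hdac2 WT than against H2O. Irx5 was higher in DMSO than in Hdac2 WT embryos (2.17 on the log2 scale, adjusted p = 0.000988), as was Dio3 (1.43, adjusted p = 0.00458). Fam20c had a log2 difference of 0.16 (adjusted p = 0.844) and Cd1d1 of 0.04 (adjusted p = 0.970) in that comparison.

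The calls were then placed among all 8 control libraries, in patterns that can overlap. Of the 1548 genes higher in DMSO than in H2O embryos, 1009 (65.2%) had all 4 DMSO and Hdac2 WT libraries above all 4 H2O and Hdac1 WT libraries, against 15.1% of all tested genes. In 863 (55.7%) both DMSO libraries were above all 6 others, against 17.8% of all tested genes. In 269 (17.4%) both H2O libraries were below all 6 others, against 5.35%. Of the 344 lower genes, 180 (52.3%) had the DMSO and Hdac2 WT libraries below the H2O and Hdac1 WT libraries, against 3.83% of all tested genes. In 104 (30.2%) both DMSO libraries were below all 6 others, against 3.69%, and in 141 (41.0%) both H2O libraries were above all 6 others, against 5.34%. These shares are descriptions, since the genes were called on 4 of the 8 libraries.

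Stage and treatment differences in other libraries were read for the same genes, in comparisons that use neither DMSO nor H2O libraries. Between the late and the early 2-cell stage of Hdac1 WT embryos, the genes higher in DMSO embryos had a median log2 difference of 0.40 and those lower −0.68, against 0.22 over all genes. Of the genes lower in DMSO embryos 30.5% lay above 0 there, against 55.3% of all genes. Between Hdac1 MU and Hdac1 WT embryos the medians were 0.56 for the genes higher in DMSO embryos and −0.07 for those lower, against −0.06 over all genes. Between embryos injected with the Hdac1 mutant mRNA and then with water at the early 2-cell stage and embryos injected once with that mRNA, the medians were 0.39, 0.10 and 0.29 for higher, lower and all genes. Across genes, these 3 differences correlated with DMSO minus H2O at r = 0.134, 0.197 and 0.155 over 12234 genes. The genes are not independent replicates.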

How the data were processed

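PolyA RNA of whole mouse embryos was sequenced in 22 libraries, of which 4 are compared. The authors deposited FPKM per gene and library. Per the submitters' processing notes the tools included Trimmomatic, HISAT2, featureCounts and Cufflinks, on GRCm38; per the labels' protocols RNA was selected on oligo(dT) beads, and no strand step is described, so overlapping and antisense genes may share reads. Depth is not given in the sources used here. Values were taken as log2(FPKM + 1) and fitted in limma 3.58.1 (R 4.3.3) over all 11 mouse groups (11 residual degrees of freedom), without a block, with Benjamini-Hochberg adjustment over 12234 genes. The fit was also run on simulated data, and no outcome of that run is given here. GC came from the longest GENCODE M21 transcript. Genes were named as the 15 largest non-overlapping calls each way at 5 FPKM or more in the higher group, leaving out clone and predicted gene symbols, up to 3 called members per list, and Hdac1, Hdac2 and Kdm5b; others were chosen after their values were seen. Members and lists were chosen with earlier results of these data known; 48 lists and 4 added ones were used, with 29 symbols matched by synonym. Replicate numbers were not taken to pair samples (correlation of replicate differences 0.0546). With 2 libraries a group, this value cannot show whether same-numbered libraries were prepared together. Alternatives covered pseudocount, filter, samples in the fit, scaling, block, variance trend, GC and left-out libraries. Cattle libraries were not used here.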

Additional observations from a re-analysis of the deposited data

How the results depend on the processing

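Of the 15 largest differences each way by the naming rule, which leaves out clone and predicted genes, 13 of 15 higher and 3 of 15 lower calls held under all 15 settings. Counts of genes higher and lower in DMSO against H2O were 532 and 60 in a fit of the 4 libraries alone, 887 and 642 (58.0% higher) when scaled by median ratios, 685 and 452 (60.2%) when quantile normalized, 452 and 269 (62.7%) after the GC correction, which was chosen after seeing the data, and 603 to 1338 and 108 to 302 with 1 library left out. They were 1514 and 331 with the replicate number as a block, 1349 and 306 at a pseudocount of 0.1, 1214 and 292 at a minimum of 5 FPKM, 1254 and 288 with no filter and 1413 and 253 over late 2-cell libraries. The distance ratio of 1.64 was 1.78 at a minimum of 5 FPKM and 1.32 to 2.26 with 1 library left out. In the latter the divisor changed too, to the replicate pair of the other group alone. Against Hdac2 WT, a comparison chosen after seeing the data, the counts of 429 and 153 were 12 and 1 (92.3% higher) in a fit of 4 libraries, 345 and 90 over late 2-cell libraries, 267 and 242 (52.5%) when scaled by median ratios, 128 and 150 (46.0%) when quantile normalized, 282 and 353 (44.4%) after the GC correction, and 41 to 373 and 5 to 181 (67.3% to 90.0%) with 1 library left out. Fewer libraries mean fewer residual degrees of freedom; for the other settings the cause was not tested. Single genes that changed sign were Sap30l (−0.19), Phf1 (−0.10) and Cbx2 (−0.12) after the GC correction, and 3 that were never called: Hdac1 (−0.17 when scaled by median ratios, −0.19 when quantile normalized, −0.18 after the GC correction, −0.014 to 0.032 with 1 library left out), Hdac2 (0.003 after the GC correction, −0.314 to 0.126 with 1 library left out) and Kdm5b (−0.341 to 0.053 with 1 library left out). With 2 libraries a group and no depth in FPKM, small differences could not be told from the spread between libraries.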

Other observations

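The share of genes called higher in DMSO embryos, 12.7% over all genes, varied by chromosome, as a description over genes that share libraries. It was highest on chromosome 7 (17.2% of 957 tested genes), chromosome 19 (16.8% of 394) and chromosome 17 (15.9% of 586), and lowest on chromosome 3 (6.93% of 548), chromosome 13 (7.32% of 396) and the X chromosome (7.47% of 442). Zinc finger genes named Zfp, a list chosen after values were seen, had 15 higher and 10 lower of 234 in DMSO embryos. These are 6.41% higher, against 12.7% of all genes, and 4.27% lower, against 2.81%. Their median was 0.03, against 0.158 over all genes, and their median transcript GC was 44.3%. Zfp935 had 1.68 and 2.14 FPKM in DMSO embryos, against 7.57 and 4.26 FPKM in H2O embryos.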
